A study of Mus musculus with 8 samples.

Results

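Inflammatory monocytes of the mouse colonic lamina propria were described here as 423 barcodes out of 96721 that passed the limits on quality, in 8 droplet single-cell RNA libraries. The limits were at least 400 genes and under 20% mitochondrial UMIs (unique molecular identifiers, which count transcripts), and 100673 barcodes were deposited in all. A barcode was a member when it held at least 5 Lyz2 UMIs and at least 1 UMI of Ly6c2 and Ccr2 together. It could hold at most 2 UMIs of C1qa, C1qb and C1qc together, at most 1 of Ccl22 and Ccl17, fewer than 10 of S100a8 and S100a9, 0 of Cd3e, Cd3d and Cd3g, at most 2 of Col3a1 and at most 1 of Cd79a. The members were thus chosen by measured values of these 15 genes. Where levels of these genes are given, they are a description and were not tested.

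All mice were C57BL/6, 10 to 12 weeks old and kept free of specific pathogens, and their sex is not stated. Wildtype mice (WT) and mice with a knock-in of an amino acid substitution in RORγt, a transcription factor of T cells, were either left on regular water for 10 days or received water with 2% DSS (dextran sulfate sodium, a polymer toxic to gut epithelium) for 7 days. The treated mice then had ordinary water for 3 days, and every colon was taken on day 10. The sample titles name the substitution S203A and the series title names it S182A. The 4 groups (WT untreated, knock-in untreated, WT DSS and knock-in DSS) held 2 libraries each, named 1 and 2 below, from separate biological replicates per the study's design. The cells had been enriched for CD4+ T cells with a magnetic kit, so monocytes are cells that remained beside the enriched type, and their share reflects that step too.

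Ly6C-high monocytes leave the bone marrow through the chemokine receptor CCR2 and enter the gut wall continuously. In the healthy colon they mature into macrophages that gain MHC class II and complement C1q and lose Ly6C, while in colitis they accumulate at an early stage and make inflammatory mediators. Because they are the source of most colonic macrophages, the barcodes with at least 10 C1q UMIs that met the other limits, without the condition on Ly6c2 and Ccr2, served as the most similar population (5335 barcodes, called C1q-high macrophages here).

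The libraries held 58 and 44 members in WT untreated, 33 and 32 in knock-in untreated, 46 and 83 in WT DSS and 100 and 27 in knock-in DSS. Summed over its members, a library gave between 119110 and 285833 UMIs, and the median member held 2687.5 to 4221 UMIs. All levels below are UMIs per 1000000 summed member UMIs (CPM), so 1 UMI corresponds to 3.5 to 8.4 CPM. In such a sum, fewer expressing barcodes and fewer transcripts per barcode cannot be told apart. Knock-in DSS 2 had the fewest members, and it stood apart in several genes below, with 462 CPM of S100a8 against 0 to 71.7 CPM in the other 7 libraries. Knock-in untreated 2 held 18688 CPM of the immunoglobulin light chain gene Igkc, against 179 to 3946 CPM elsewhere. No barcode was a member in more than 1 library, while 17 members carried a barcode sequence also found in another library. No doublet caller was run. T cell receptor constant region UMIs (Trac, Trbc1, Trbc2) occurred in 39 members, Cd4 UMIs in 19 and more than 10000 UMIs in 4, and 15 of the 423 were on the deposited list of kept cells.

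Near the edges of the rule, 55 members held 5 or 6 Lyz2 UMIs, and 57 barcodes with 3 or 4 met all other conditions. For C1q, 124 members held 1 or 2 UMIs, and 51 barcodes with 3 or 4 stood just outside. The condition on Ly6c2 and Ccr2 was met with a single UMI by 166 members, whereas 313 barcodes with none met everything else. Both genes were found in 106 members, Ly6c2 alone in 138 and Ccr2 alone in 179. S100a8 and S100a9 were absent from 388 members, and 9 barcodes lay outside for holding 10 or more of their UMIs.

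Further markers were set against the C1q-high macrophages. Of 20 further monocyte genes, 13 were higher in the members than in the C1q-high macrophages within every one of the 8 libraries and 1 was lower. Plac8 averaged 2535 CPM against 65.1 in the macrophages, and Vcan, Chil3, Fn1 and Hp also stood among these genes. Of 21 genes of resident macrophages, 17 were lower in the members in all 8 libraries and 0 were higher, and Timd4 and Folr2 had no UMI in any member. Of 13 neutrophil genes, 2 were higher in the members in all 8 libraries and 0 were lower. For 14 dendritic cell genes these counts were 0 and 2, and for 11 patrolling monocyte genes 0 and 1. The median log2 ratios of members over macrophages were 1.51 for the monocyte, 0 for the neutrophil, 0.31 for the dendritic cell and 0.42 for the patrolling monocyte genes. These levels describe the population and were not tested, since the C1q genes divided it.

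Marker lists of other cells ranged from near 0 to high levels in single libraries. The 10 B and plasma cell genes summed to 326 to 21884 CPM in untreated and 294 to 4985 CPM in DSS libraries, with the highest values in knock-in untreated 2 and knock-in DSS 1. The 7 endothelial genes summed to 13.3 to 698 CPM, the 9 fibroblast genes to 0 to 517 CPM and the 14 dendritic cell genes to 58.8 to 386 CPM. For neutrophils, Cxcr2, Retnlg, Ly6g, Camp and Ngp had no UMI in any member, and the summed level of the 13 neutrophil genes was 419 to 677 CPM in untreated and 570 to 1318 CPM in DSS libraries, with the highest value in knock-in DSS 2. In the C1q-high macrophages the neutrophil sum was 276 to 445 CPM in untreated and 352 to 402 CPM in DSS libraries. Their dendritic cell sum was 191 to 209 and 93.5 to 229 CPM. Of 11 epithelial genes 9 were at 0 in the members, as were 8 of 9 mast cell and eosinophil genes. The 12 T cell genes summed to 88.2 to 309 CPM, against 3899 to 4722 CPM in the T barcodes (at least 2 Cd3 UMIs), and the 11 genes of patrolling monocytes summed to 598 to 1021 CPM with Cd300e at 0. Xist, which is transcribed from the inactive X chromosome, had no UMI in any member of the 8 libraries.

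DSS did not change the share of monocytes among all passing barcodes beyond the spread between libraries. The share was 0.437% and 0.368% in WT untreated, 0.313% and 0.291% in knock-in untreated, 0.425% and 0.619% in WT DSS, and 0.651% and 0.261% in knock-in DSS. Untreated libraries averaged 0.352% ± 0.065 and DSS libraries 0.489% ± 0.182 (SD, n = 4), and knock-in DSS 2 was the lowest of all 8. The ratio of the geometric means was 1.32 (two-sided exact permutation test of 4 against 4 libraries, p = 0.286, where the smallest possible p is 0.0286). Between genotypes, the 2 libraries against 2 cannot reach p = 0.05 by an exact test, and no other test of the genotype shares was run.

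**Figure D1:**
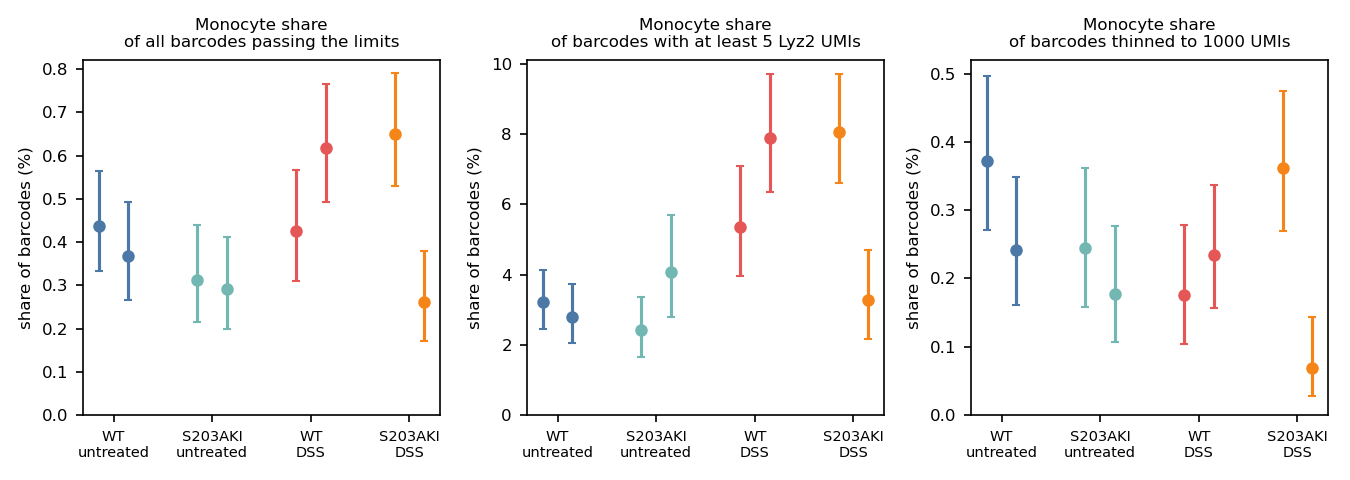
Share of inflammatory monocyte barcodes (y axes, %) in each of the 8 libraries (x axis, by group), among all passing barcodes, among barcodes with at least 5 Lyz2 UMIs and among barcodes thinned to 1000 UMIs, with exact 95% binomial intervals that cover counting error only. In the middle plot 3 of the 4 DSS libraries lie above all untreated ones, and in the others the groups overlap.

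Among barcodes with at least 5 Lyz2 UMIs, monocytes made up 3.21%, 2.80%, 2.41% and 4.07% in the untreated libraries and 5.36%, 7.90%, 8.06% and 3.27% after DSS, a ratio of 1.89 (two-sided exact permutation test, p = 0.0571). The C1q-high macrophages, which share this denominator, made up 4.0% to 8.75% of passing barcodes in untreated and 3.49% to 4.93% in DSS libraries. With barcodes thinned to 1000 UMIs the direction turned, with a ratio of 0.718 (two-sided exact permutation test, p = 0.371). This left out 5306 passing barcodes with fewer UMIs. It rested on 7 members in knock-in DSS 2 and at most 51 in another library (knock-in DSS 1). Lyz2 itself, a gene of the rule, stood at 9105 to 10356 CPM in untreated and 4030 to 6429 CPM in DSS members. Ly6c2, also of the rule, stood at 471 to 803 CPM in untreated and 259 to 458 CPM in DSS members. Ccr2 stood at 264 to 366 and 272 to 402 CPM. The part of these levels in the share was not tested.

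DSS against untreated, averaged over the genotypes, was the comparison with the most changed genes within the monocytes. By edgeR's quasi-likelihood test with Benjamini-Hochberg adjustment, 130 of 2827 genes (4.6%) were called at an adjusted p under 0.05, with 67 higher (2.37%) and 63 lower (2.23%). The mediator genes Ptgs2 and Il1b, the matrix genes Thbs1 and Tgfbi, the antiprotease gene Slpi and the chemokine receptor gene Ccr1 rose. Crip1, Ubb and several genes of low level fell. Genes named by size of change had to have groups without overlap, so for them the lack of overlap adds no support, and over all 2827 genes the groups did not overlap for 472 (16.7%). The count of calls rested on single libraries, and the calls named below are read with that limit. It was 52 without WT untreated 1, 25 without WT untreated 2, 45 and 56 without knock-in untreated 1 or 2, 27 without WT DSS 2, 85 without knock-in DSS 2 and 234 without knock-in DSS 1, with 107 without WT DSS 1.

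Among 12 tested genes of inflammatory cytokines and mediators, 3 rose and 0 fell, with a median log2 fold change of 0.25, against -0.01 over all 2827 genes. Over all genes 2.37% rose and 2.23% fell, and the counts of this and the later lists in this comparison are read beside these shares. The lists were chosen with earlier results of these data known, so their counts and medians are a description. Ptgs2 (ENSMUSG00000032487), the inducible cyclooxygenase that makes prostaglandins, stood at 367 and 364 CPM in WT untreated, 126 and 220.5 in knock-in untreated, 883 and 988 in WT DSS, and 1109 and 1519.6 in knock-in DSS. Every DSS library lay above every untreated one. Its log2 fold change was 2.05 ± 0.21 (SE, edgeR adjusted p = 0.00134), and it was called in all 14 alternative analyses that gave a value. In T barcodes Ptgs2 rose as well, from 23.9 to 52.9 CPM in untreated to 56.1 to 214 CPM in DSS libraries (log2 fold change 1.63, edgeR adjusted p = 0.0319), and the part of free RNA in the monocyte level was not tested.

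Il1b (ENSMUSG00000027398), which encodes the cytokine IL-1β, stood at 4369 and 4738 CPM in WT untreated, 2253 and 3278 in knock-in untreated, 5595 and 6225 in WT DSS, and 6371 and 6784 in knock-in DSS. The groups did not overlap, and the knock-in libraries spanned both the lowest and the highest levels. The log2 fold change was 0.73 ± 0.13 (SE, edgeR adjusted p = 0.0142). Osm encodes oncostatin M, an IL-6 family cytokine that acts on stromal cells. It rose from 14.7 to 63.2 CPM in untreated to 84.0 to 207 CPM in DSS libraries (log2 fold change 1.75). Osm also rose in the T barcodes (0.94) and in the C1q-high macrophages (0.57). Tnf (log2 fold change -0.11, edgeR adjusted p = 0.890), the inflammasome gene Nlrp3 (0.34, 0.294) and the IL-1 receptor antagonist gene Il1rn (0.66, 0.111) were not called. For Tnf the untreated libraries spanned 44.0 to 88.5 CPM and the DSS libraries 34 to 92.4 CPM.

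**Figure D2:**
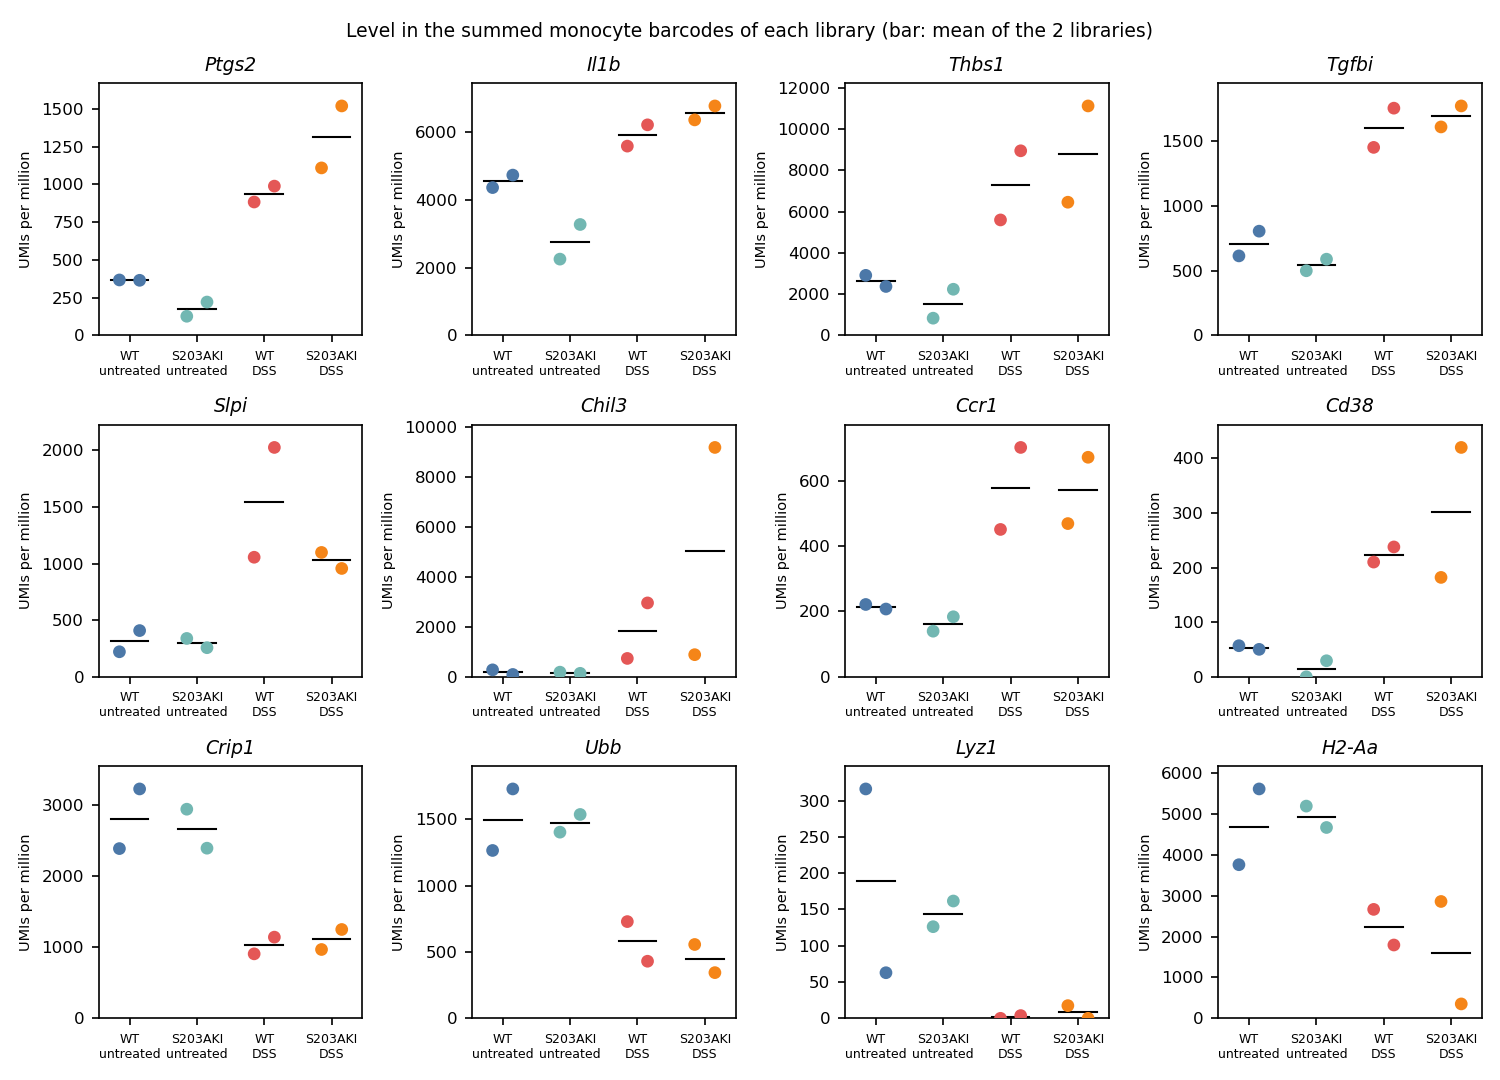
Levels (y axes, CPM) of 12 genes in each library, grouped by genotype and treatment on the x axis, with bars at the mean of the 2 libraries. The DSS libraries do not overlap the untreated ones in any of the 12, as for 16.7% of all genes and as a condition for those named by size, and H2-Aa, at 353 CPM in knock-in DSS 2, was not called.

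Among 19 tested monocyte genes, 5 rose and 0 fell, and the median log2 fold change was 0.37. Thbs1 (ENSMUSG00000040152), which encodes the matrix glycoprotein thrombospondin-1, was at 2909, 2369, 831 and 2234 CPM in the untreated libraries and at 5595, 8949, 6455 and 11124 CPM in the DSS libraries. Each DSS library exceeded each untreated one (1.90 ± 0.28 on the log2 scale, SE, edgeR adjusted p = 0.00539). Thbs1 rose in the T barcodes (0.94) and in the C1q-high macrophages (1.35) as well. Ccr1 (ENSMUSG00000025804), a receptor for CCL3 and CCL5, rose from 139.6 to 221 CPM in untreated to 451 to 702 CPM in DSS libraries (log2 fold change 1.53 ± 0.23, edgeR adjusted p = 0.00539). Itgam, the CD11b integrin chain (1.25), and Vcan, the proteoglycan versican (2.23), rose as well.

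Chil3 (ENSMUSG00000040809), which encodes the chitinase-like protein Ym1, was at 278, 94.3, 186 and 139.6 CPM before DSS and at 735, 2954, 885 and 9168 CPM after it. All 4 DSS libraries were above all untreated ones, and knock-in DSS 2 was the highest by a wide margin. The log2 fold change was 4.04 ± 0.69 (SE, edgeR adjusted p = 0.0119). It was 3.37 without WT DSS 2 and 2.81 without knock-in DSS 2. The adjusted p over the alternatives ranged from 1.05e-87 (edgeR without the filter on low counts) to 0.0447. Chil3 also rose in the T barcodes, from 0.106 to 0.453 CPM to 2.61 to 29.3 CPM, and the part of free RNA in its monocyte level was not tested. It rose in the C1q-high macrophages too (log2 fold change 4.53), and the difference from the monocytes was not called (-0.12, edgeR adjusted p = 0.932). Plac8 stood at 2979 to 3423 CPM in untreated and 672 to 2662 CPM in DSS members and was not called (log2 fold change -0.96, edgeR adjusted p = 0.101).

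Of 14 tested genes of matrix turnover and repair, 4 rose and 1 fell, with a median log2 fold change of 1.18. Chil3 and Thbs1 are on this list too, and Chil3 also on the next. Tgfbi (ENSMUSG00000035493), which encodes a matrix protein induced by TGF-β, had 613, 804, 499 and 588 CPM in untreated and 1451, 1754, 1609 and 1771 CPM in DSS libraries. The groups were far apart relative to their spread (1.32 ± 0.16 on the log2 scale, SE, edgeR adjusted p = 0.00276), and the call held in all 14 alternatives. Mmp14, a membrane-bound matrix metalloproteinase, rose (0.97, called in 5 of 14 alternatives). Retnla, which encodes the resistin-like molecule RELMα, had 96 UMIs in untreated members (69.6, 0, 505 and 66.1 CPM) and 0 after DSS, at least 44.1-fold lower against a floor of 3 UMIs over the DSS group. Knock-in untreated 1 held 76 of the 96 UMIs, and the bound was 12.2-fold without it and 28.9-fold without knock-in DSS 1. The call held in 7 of 13 alternatives. Retnla was also lower after DSS in the T barcodes (log2 fold change -5.59) and in the C1q-high macrophages (-11.6). The part of free RNA in its monocyte level was not tested. Spp1, Vegfa and Timp1 had log2 fold changes of 1.51, 1.26 and 1.99 and were not called (edgeR adjusted p = 0.0624, 0.0624 and 0.0971).

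Of 15 tested genes of antimicrobial and granule products, 4 rose and 1 fell (median log2 fold change 0.83). Slpi (ENSMUSG00000017002), a secreted inhibitor of leukocyte proteases, was at 221, 408, 339 and 257 CPM in untreated and 1056, 2026, 1099 and 957 CPM in DSS libraries. In T barcodes Slpi rose too, from 13.3 to 28.3 CPM to 35.9 to 105 CPM (log2 fold change 1.40), and its part here was not tested. The lowest DSS library of the monocytes held more than the highest untreated one, and the log2 fold change was 1.96 ± 0.25 (SE, edgeR adjusted p = 0.00359). Clec4d, a receptor for microbial glycolipids (1.45), and Fpr2, a formyl peptide receptor (1.66), rose. Both also rose in the T barcodes (0.71 and 1.11). In the C1q-high macrophages Fpr2 rose (0.75) and Clec4d was not called (0.42). The part of free RNA in their monocyte levels was not tested. The acute-phase genes Saa3 and Lcn2 reached 4886 and 495 CPM in knock-in DSS 2, against 513 to 799.8 and 18.5 to 102 CPM in the other DSS libraries, and neither was called (edgeR adjusted p = 0.0738 and 0.0937). The neutrophil sum also had its highest value in that library, and its part in these levels was not tested. In T barcodes Saa3 rose as well, from 10.6 to 58.5 CPM to 245 to 912 CPM. Lyz1 fell from 62.8 to 316 CPM to 0 to 17.5 CPM (log2 fold change -4.82, edgeR adjusted p = 0.00539, with -4.03 without WT untreated 1, -5.80 without WT DSS 2 and -6.80 without knock-in DSS 1). It is a close copy of Lyz2, which the rule used, so its count may share reads with that gene and is uncertain.

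Of the genes named by size of change, Lrg1, which encodes a leucine-rich glycoprotein of neutrophils and the acute phase, had 2 UMIs in untreated and 80 in DSS members (ratio 29.0, 95% counting interval 7.78 to 244). It was at 0 to 7.35 CPM in untreated and 43.2 to 193 CPM in DSS libraries. The log2 fold change of Lrg1 was 4.56, with 5.82 without WT untreated 2 and 5.91 without knock-in untreated 2. Cd38, an NAD-consuming ectoenzyme, rose from 56.9, 50.3, 0 and 29.4 CPM to 210.0, 238, 182 and 419.8 CPM (log2 fold change 3.08 ± 0.46, SE, edgeR adjusted p = 0.00539). It was 5.35 without knock-in untreated 2, which leaves the library at 0 alone in its group. The neutrophil-attracting chemokine gene Cxcl3 (2.26) and the metalloproteinase gene Adam8 (2.07) rose too. Ddit4 (2.42, and 3.69 without WT untreated 1) and Myo1e (1.89) also rose, and each of these last calls held in only 2 of the alternatives. Inhba, the activin A subunit gene, rose from 39.9 to 171 CPM to 218 to 423 CPM (1.79). It rose in the T barcodes (1.40) and in the C1q-high macrophages (1.57) as well.

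Of 19 tested genes of glycolysis and hypoxia, 2 rose and 0 fell (2.37% and 2.23% over all genes), with a median log2 fold change of 0.27. Hif1a, the oxygen-regulated transcription factor gene, rose from 273 to 398 CPM to 589 to 1007 CPM (log2 fold change 1.01), and Ero1l, an oxidase of the endoplasmic reticulum, rose from 25.1 to 50.6 CPM to 80.5 to 142 CPM (1.46, called in 2 of 13 alternatives). The glycolytic genes Pkm (0.47, edgeR adjusted p = 0.115) and Gapdh (-0.23, adjusted p = 0.349) were not called. In lipid handling 2 of 9 rose and 1 fell, with a median log2 fold change of -0.30. The sterol exporter gene Abca1 rose from 119.6 to 189.7 CPM to 339.7 to 596 CPM (1.56), and it rose in the C1q-high macrophages too (0.79). The lipid droplet gene Plin2 rose (0.85, called in 4 of 14 alternatives). The lipoprotein lipase gene Lpl fell from 6.28 to 259 CPM to 0 to 16.8 CPM (-3.78), with overlapping groups. Its highest levels were in the 2 knock-in untreated libraries (259 and 162 CPM, against 63.2 and 6.28 CPM in WT). Its call held in 9 of 12 alternatives, and its log2 fold change was -2.60 without WT untreated 1, -2.98 without knock-in DSS 1, -5.43 without WT DSS 2 and -5.31 without knock-in DSS 2.

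Crip1 (ENSMUSG00000006360), a small LIM protein gene, was at 2390.1, 3230.0, 2945 and 2396 CPM in untreated and 908, 1143, 969 and 1251 CPM in DSS libraries. All untreated libraries lay above all DSS ones (log2 fold change -1.45 ± 0.16, SE, edgeR adjusted p = 0.00188). Crip1 was lower after DSS in the C1q-high macrophages too, from 805 to 1218 CPM to 233 to 357 CPM, and in the T barcodes, from 1214 to 1841 CPM to 706 to 852 CPM. The polyubiquitin gene Ubb fell in the monocytes from 1265 to 1728 CPM to 344 to 729 CPM (-1.61), beside a fall in the macrophages (log2 fold change -1.62). AY036118, a locus that overlaps ribosomal RNA sequence, fell (-1.66) and its reads may come from ribosomal RNA.

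Other genes that fell were the immunoproteasome subunit gene Psmb8 (-1.59), the chemokine gene Ccl5 (-1.63), the phospholipid transfer gene Pltp (-1.73), the biliverdin reductase gene Blvrb (-1.90), the phospholipase gene Pla2g16 (-2.25), Tmem176a (-1.63), Mndal (-1.73) and 4930523C07Rik (-1.75). Without knock-in DSS 1 the values were -2.19 for Psmb8, -2.62 for Pltp, -2.95 for Pla2g16, -2.29 for Tmem176a and -2.37 for 4930523C07Rik, and without WT DSS 1 they were -2.28 for Ccl5 and -2.40 for Mndal. In the T barcodes Pltp (-1.61), Blvrb (-1.02), Psmb8 (-0.54), Mndal (-0.47) and 4930523C07Rik (-0.40) fell too, while Ccl5, Pla2g16 and Tmem176a were not called there. In the C1q-high macrophages all of these genes but Ccl5 and Mndal fell. The part of free RNA in the monocyte levels was not tested. Ccl5 stood at 405 to 855 CPM in untreated and 90.5 to 383 CPM in DSS libraries of the monocytes and was called in 4 of the alternatives. Of 12 chemokine ligand genes tested, Cxcl3 rose and Ccl5 fell, and the median log2 fold change was 0.05. Cxcl9 and Cxcl10, both induced by interferon-γ, were not called (log2 fold change -1.69 and -0.78, edgeR adjusted p = 0.175 and 0.531). Their levels varied between DSS libraries. They were at 22.6 and 52.8 CPM in WT DSS 2 and at 0 and 8.40 CPM in knock-in DSS 2, against 469 and 686 CPM in WT DSS 1.

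MHC class II genes were lower after DSS by median, although few calls were made. Of 9 tested genes, 0 rose and 1 fell (H2-DMa, a chaperone of peptide loading, -1.51, and -2.27 without knock-in DSS 1), with a median log2 fold change of -1.42 against -0.01 over all genes. H2-Aa (ENSMUSG00000036594), the I-A alpha chain, was at 3762, 5618, 5198 and 4674 CPM in untreated and 2668, 1796, 2862 and 353 CPM in DSS libraries. The groups did not overlap for this gene, and knock-in DSS 2 lay far below the other 3 DSS libraries. The log2 fold changes were -1.42 for H2-Aa, -1.56 for H2-Ab1, -1.64 for H2-Eb1 and -1.48 for the invariant chain gene Cd74 (edgeR adjusted p = 0.0797, 0.0779, 0.0591 and 0.0864).

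With all members, all libraries and the filter on low counts none of these 4 genes was called. All 4 were called by edgeR without that filter and none by DESeq2. Without the filter the change was no larger (H2-Aa at a log2 fold change of -1.31 against -1.42 with it). With either knock-in DSS library left out, the other stood alone in its group, so the gap between them no longer entered the spread. This held also in members with a Ly6c2 UMI and in members with at most 2 S100a8 and S100a9 UMIs. Knock-in DSS 2 then had 14 and 19 members, under the minimum of 20, and was left out. No calls are read from these fits. Without knock-in DSS 2 the log2 fold change of H2-Aa was -1.0, and without knock-in DSS 1 it was -2.52. Those of H2-Ab1, H2-Eb1 and Cd74 were -1.13, -1.22 and -1.05 without knock-in DSS 2. Without knock-in DSS 1 they were -2.80, -2.82 and -2.67. The adjusted p of H2-Aa over the alternatives ranged from 5.54e-14 (edgeR without the filter) to 0.279 (DESeq2). The MHC class II sum was 23345 to 34349 CPM in untreated and 2989 to 17619 CPM in DSS monocytes. It was also lower after DSS in the C1q-high macrophages (50797 to 55938 against 26479 to 38943 CPM) and in the T barcodes (3718 to 4867 against 1278 to 2498 CPM).

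**Figure D3:**
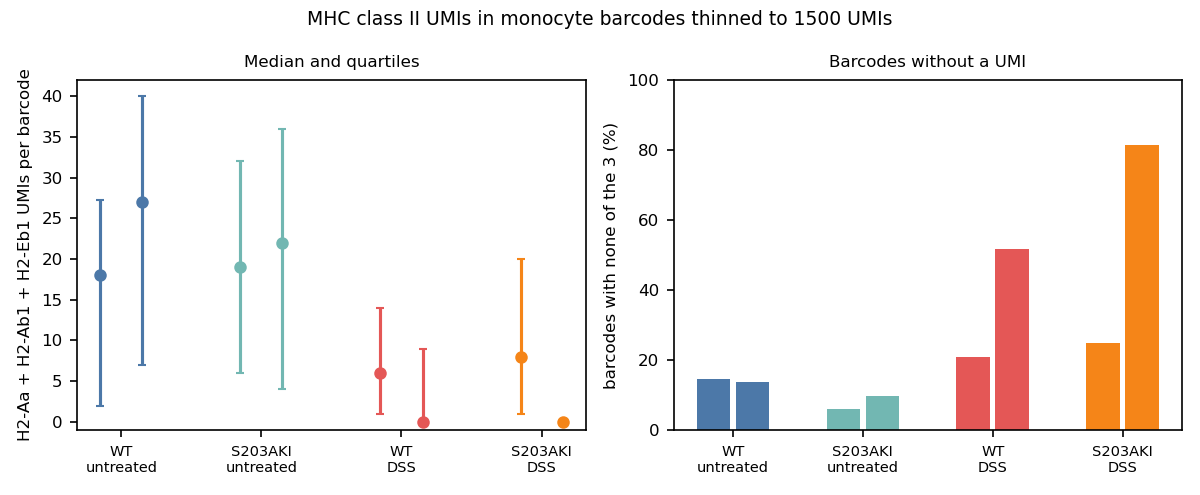
UMIs of H2-Aa, H2-Ab1 and H2-Eb1 together per monocyte barcode thinned to 1500 UMIs, as median and quartiles (left, y axis in UMIs) and as the share of barcodes with none of them (right, y axis in %), for each library by group. Medians are 18 to 27 UMIs in untreated and 0 to 8 UMIs in DSS libraries, and 81.5% of knock-in DSS 2 barcodes have none.

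Per barcode thinned to 1500 UMIs, which left out 23 shallower members, the median sum of H2-Aa, H2-Ab1 and H2-Eb1 was 18 and 27 UMIs in WT untreated, 19 and 22 in knock-in untreated, 6 and 0 in WT DSS and 8 and 0 in knock-in DSS. The share of barcodes with none of the 3 was 14.6%, 13.6%, 6.06% and 9.68% in untreated and 20.9%, 51.9%, 24.7% and 81.5% in DSS libraries, so within each treated genotype library 2 held the larger share. Unthinned, an H2-Aa UMI was found in 75.9% to 93.9% of untreated and 18.5% to 73% of DSS members. In T barcodes, at median depths of 2120 to 3165.5 UMIs, this share was 15.3% to 23.3% and 14.1% to 23.6%. In knock-in DSS 2 it was 18.5% of members and 14.1% of T barcodes, at median depths of 4221 and 3165.5 UMIs. The part of free RNA in these shares was not tested.

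Of 16 tested interferon-induced genes, 0 rose and 1 fell (2.37% and 2.23% over all genes), and all 16 had a log2 fold change below 0 (median -0.63). The gene that fell was Ly6a, the Sca-1 antigen, from 59.8 to 220.5 CPM to 8.40 to 67.9 CPM (-1.88, with -1.27 without knock-in untreated 2 and -2.99 without knock-in DSS 1). Isg15, a ubiquitin-like modifier, was at 278 to 353 CPM in untreated and 136 to 247 CPM in DSS libraries and was not called (log2 fold change -0.82, edgeR adjusted p = 0.0680). Ifi27l2a, outside this list and chosen after its values were seen, fell from 911 to 1631 CPM to 193 to 731 CPM (-1.41, and -2.06 without knock-in DSS 1). Ly6a and Ifi27l2a fell in the C1q-high macrophages too (-1.39 and -1.80). In the T barcodes Ifi27l2a fell (-0.41) and Ly6a was not called (-0.26). The sum of the 32 interferon-induced genes was 4666 to 6374 CPM in untreated and 5379, 2788, 4863 and 2040 CPM in DSS libraries, with the lowest values again in library 2 of each treated genotype. Phagocytosis and lysosome genes (0 of 17 called, median 0.05) and immediate early genes (0 of 21, median -0.23), which respond to tissue dissociation, gave no call. Among 12 tested resident macrophage genes 1 rose and 1 fell (Pltp), and 1 of 5 proliferation genes fell (Cenpa, -1.03, called in 2 of 14 alternatives).

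Within the wildtype alone, the comparison the study set for DSS, no gene passed edgeR's quasi-likelihood test (0 of 2827, 0%). The unadjusted p was under 0.05 for 275 genes. Where no gene differs, a share of about 0.05 of the genes still has such a p, and the later counts of unadjusted p are read beside it. DESeq2 called 4 genes and edgeR without the filter on low counts 65. The smallest adjusted p was 0.0639, shared by Slpi (log2 fold change 2.25) and Crip1 (-1.50). Without knock-in DSS 1 or 2, which enter through the estimate of spread and the filter, 12 of 3370 and 13 of 3322 tested genes were called, and 2 and 3 without WT DSS 1 or WT untreated 2. Ptgs2 (1.31, edgeR adjusted p = 0.184), Il1b (0.33, adjusted p = 0.576) and H2-Aa (-1.12, adjusted p = 0.571) were not called in the wildtype.

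Within the knock-in, 17 of 2827 genes were called (0.601%), with 11 higher and 6 lower. Ptgs2 (log2 fold change 2.79 ± 0.31, SE, edgeR adjusted p = 0.00310), Il1b (1.12), Thbs1 (2.39), Tgfbi (1.51), Abca1 (1.94), Inhba (2.63), Cd38 (4.15) and Ccr1 (1.68) rose. So did the growth factor gene Nrg1, from 59.8 and 36.7 CPM to 238 and 185 CPM (2.01), the NF-κB subunit gene Nfkb1 (1.28) and the kinase gene Map4k4 (1.21). Hsp90aa1 (-2.07), Hsp90ab1 (-1.70), Ubb (-1.80), Crip1 (-1.39), Lpl (-5.30) and AY036118 (-1.92) fell. The count was 2 without knock-in untreated 1 and 107 without knock-in DSS 1, and 29 without either WT untreated library. The effect of DSS was not shown to differ between genotypes, since the interaction reached the threshold for 0 of 2827 genes (0%) by edgeR and for 0 by DESeq2. Its unadjusted p was under 0.05 for 98 genes. Without knock-in DSS 1, which leaves knock-in DSS 2 alone in its group, 4 genes were called, all with a lower DSS change in the knock-in (H2-Aa, H2-Ab1, H2-Eb1 and Cd74, edgeR adjusted p = 0.00476 for Cd74). For Ptgs2 the interaction was 1.48 on the log2 scale (unadjusted p = 0.00367, edgeR adjusted p = 0.9998).

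Knock-in and wildtype monocytes of untreated mice did not differ in any gene by edgeR (0 of 2827, 0%, smallest adjusted p = 0.114 for Hspa1a). The unadjusted p was under 0.05 for 163 genes, close to the share of 0.05 met where no gene differs, and DESeq2 called 2. Hspa1a (ENSMUSG00000091971), the inducible HSP70, was at 37.9 and 62.8 CPM in WT and at 1835 and 485 CPM in knock-in libraries. Hsp90aa1, the inducible HSP90, was at 677 and 1653 CPM against 3317 and 4269.6 CPM. The log2 differences were 4.55 ± 0.72 and 1.75 ± 0.34 (SE, edgeR adjusted p = 0.114 and 0.175). Hspa1a and its near-identical copy Hspa1b (log2 difference 3.46, adjusted p = 0.175) may share reads.

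**Figure D4:**
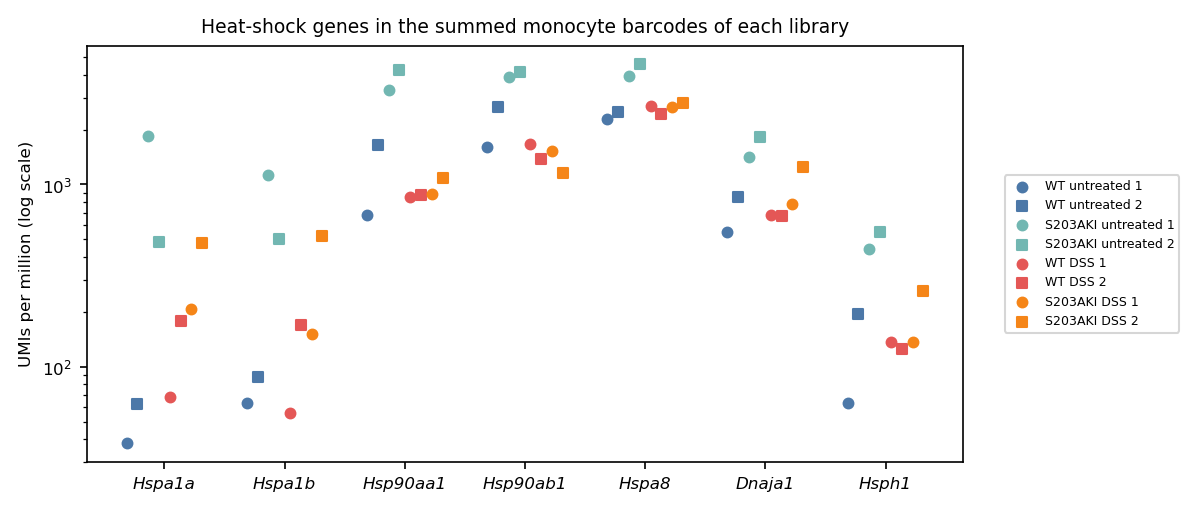
Levels of 7 heat-shock genes (y axis, CPM, log scale; x axis, genes) in each of the 8 libraries, with color for the group and shape for the library. For each of the 7 genes both knock-in untreated libraries lie above both WT untreated ones, and the knock-in DSS libraries lie near the WT DSS ones for Hsp90aa1, Hsp90ab1 and Hspa8.

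Of 11 tested heat-shock genes, 0 were called and all 11 were higher in both knock-in than in both WT untreated libraries, a pattern seen for 995 of all 2827 genes in either direction (35.2%). Their median log2 difference was 1.41, against 0.02 over all genes. With either knock-in DSS library left out, 2 genes were called, and with neighbouring animal numbers as a block, 3 genes were called. Hspa1a was also higher in other cells of the knock-in untreated libraries. Hspa1a was at 426 to 675 CPM in WT and 2054 to 5033 CPM in knock-in untreated C1q-high macrophages, and at 343 to 545 CPM against 749.5 to 1877 CPM in T barcodes. Over both genotypes DSS members had lower Hsp90aa1 (-1.27), Hsp90ab1 (-1.11) and Hspe1 (-1.28), and 3 of 11 heat-shock genes fell and 0 rose (median -0.46). The highest levels of these 3 genes were in the knock-in untreated libraries, and for Hsp90aa1 WT untreated 1, at 677 CPM, lay below all DSS libraries (852 to 1091 CPM).

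Il1b was at 4369 and 4738 CPM in WT and 2253 and 3278 CPM in knock-in untreated monocytes (log2 difference -0.67, edgeR adjusted p = 0.482), and the guanylate-binding protein gene Gbp2 at 1119 and 867 against 292 and 478 CPM (-1.32, adjusted p = 0.845). Neither was called, and H2-Aa differed by 0.12 (adjusted p = 0.994). After DSS edgeR found 0 of 2827 genes (0%) to differ between genotypes and DESeq2 0. The unadjusted p was under 0.05 for 46 genes. Without knock-in DSS 1, where knock-in DSS 2 alone stands for its group and is assumed to vary like the others, 5 genes were called, with H2-Aa, H2-Ab1, H2-Eb1 and Cd74 lower and Wfdc21 higher in the knock-in. The log2 differences were 0.13 ± 0.18 (SE) for Il1b, 0.45 ± 0.26 for Ptgs2 and 1.32 ± 0.63 for Hspa1a, none called (edgeR adjusted p = 0.9998 for each). Chil3 (1.40 ± 0.82) and H2-Aa (-0.47 ± 0.60) turned in sign without knock-in DSS 2, to -1.09 and 0.34. With 2 libraries a group these intervals are wide, so a lack of calls does not show that the genotypes are alike.

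Members were also set side by side by detection of Ly6c2. Since the rule used Ly6c2, members without it hold a Ccr2 UMI by construction, and a side can rest on a single UMI, so the levels are given as a description. Ly6c2-positive members made up 65.5%, 75%, 60.6% and 68.8% of the untreated and 56.5%, 45.8%, 53% and 51.9% of the DSS monocytes. In the 4 libraries with at least 20 members of each kind (WT untreated 1, WT DSS 1, WT DSS 2 and knock-in DSS 1), H2-Aa stood at 3266, 1765, 1039 and 2243 CPM in Ly6c2-positive and at 5038, 3866, 2514 and 3526 CPM in Ly6c2-negative members, lower in the positive members of each. Ifitm3, an antiviral membrane protein gene, stood at 2906 against 1197, 2209 against 1710.4, 2031 against 1389 and 2635 against 1712 CPM, higher in the positive members of each. edgeR with the library as a block put 7 of 1798 genes (0.389%) past the threshold, and the count was 23 without WT DSS 1 or WT DSS 2 and 4 without WT untreated 1. None of the 7 passed when members with at least 1500 UMIs were thinned to 1500 and sorted anew by their thinned Ly6c2 count. There 557 genes could be tested, and the log2 difference of H2-Aa moved from -0.91 to -0.31. Some members changed sides, and the libraries with at least 20 members on each side changed too. Depth alone can therefore not be read from this, and nothing is drawn from these calls.

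The last comparison tested whether the DSS change of the monocytes differed from that of the C1q-high macrophages in the same libraries. edgeR with the library as a block called 81 of 7319 genes (1.11%), 64 with a higher and 17 with a lower DSS change in the monocytes, and 767 had an unadjusted p under 0.05. Of the 7319 genes, 4494 passed the filter on low counts only with the macrophage sums in the fit, and 3 of the 81 calls, all higher, were among them (Rhov, Ccl7 and Sphk1, named here for that reason after their values were seen). The other 78 calls, 61 higher and 17 lower, were of genes also tested in the monocytes alone. The count was 43 without WT DSS 2 and 52 without knock-in untreated 2. Differences are given on the log2 scale. A gene can differ here through its level in the monocytes, in the macrophages or in both, so levels of each population are given for part of the genes.

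Tgfbi rose in the monocytes (613, 804, 499 and 588 CPM to 1451, 1754, 1609 and 1771 CPM) and stood at 833 to 1068 against 968 to 1190.3 CPM in the macrophages, where it was not called. The difference was 1.37 ± 0.16 (SE, edgeR adjusted p = 9.11e-07), and it was called in all 10 alternatives. Slpi rose in the monocytes and stood at 17.3 to 69.5 against 23.0 to 105 CPM in the macrophages, where it was not called (difference 1.91, edgeR adjusted p = 0.00282). Lcn2, the siderophore-binding lipocalin gene, was at 6.28 to 19.9 against 18.5 to 495 CPM in monocytes and at 3.77 to 5.64 against 0.676 to 5.68 CPM in macrophages (difference 4.23, adjusted p = 0.000273, and 3.39 without knock-in DSS 2). In T barcodes Lcn2 stood at 1.56 to 7.31 against 12.9 to 47.9 CPM.

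**Figure D5:**
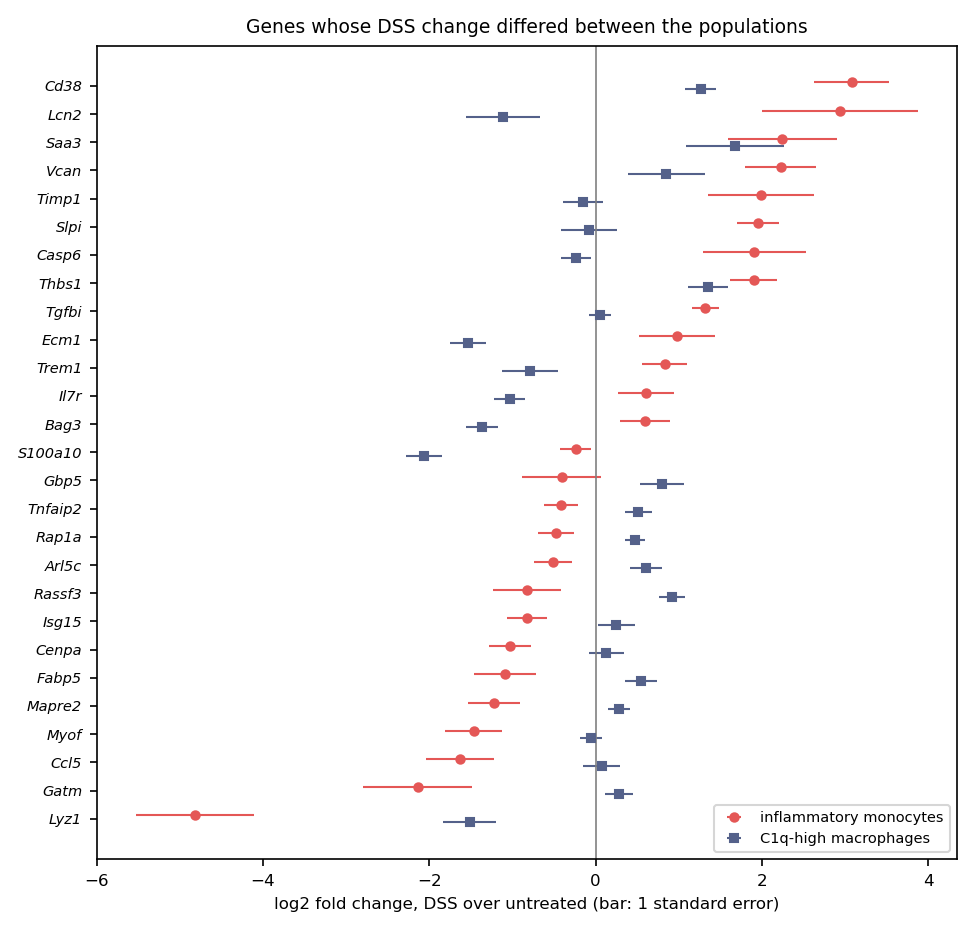
Log2 fold change of DSS over untreated (x axis, with bars of 1 standard error) in the inflammatory monocytes and in the C1q-high macrophages for 27 genes (y axis) whose change differed between the populations. Tgfbi and Slpi lie near 0 in the macrophages and above 1 in the monocytes, while S100a10 lies near 0 in the monocytes and at -2.06 in the macrophages.

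S100a10, the annexin A2 partner gene, behaved the other way round. Monocytes held 835, 1194, 1037 and 926 CPM before and 735, 894, 780.2 and 1201 CPM after DSS, and macrophages 183 to 331 and 60.6 to 83.9 CPM (difference 1.86 ± 0.19, SE, edgeR adjusted p = 4.55e-08). The extracellular matrix gene Ecm1 (2.59) and the co-chaperone gene Bag3 (2.24) also differed. Ecm1 stood at 25.1 to 113 against 74.1 to 227 CPM in the monocytes, where it was not called, and fell from 242 to 509.6 CPM to 119 to 192 CPM in the macrophages. Bag3 stood at 50.3 to 93.1 against 73.5 to 143 CPM in the monocytes, not called, and fell from 157 to 616 CPM to 108 to 196 CPM in the macrophages. Ccl5 fell in the monocytes and was not called in the macrophages, which held 377 to 861 CPM in untreated and 551 to 827 CPM in DSS libraries (difference -1.72).

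The list counts against the macrophages are read beside those over all 7319 genes (64 higher and 17 lower). They are a description too, since the lists were chosen with earlier results of these data known. By list, 6 of 20 monocyte genes had a higher DSS change in the monocytes and 0 a lower one. Among them were Vcan (1.48), F13a1 (1.27), Ccr1 (1.21) and Itgam (0.92), and the list median was 0.34 against 0.06 over all genes. Of 16 chemokine ligand genes 6 were higher (Ccl7, Cxcl3, Ccl2, Ccl3, Ccl4 and Cxcl2) and 2 lower (Ccl5 and Cxcl10), with a median of 0.10. In the macrophages the log2 fold changes were 0.64 for Cxcl3, -0.63 for Ccl2 and -0.36 for Cxcl2. Ccl2 (0.87) and Cxcl2 (0.46) were not called in the monocytes alone. The antimicrobial genes gave 5 higher and 1 lower of 16 (median 0.97), the heat-shock genes 4 higher and 0 lower of 14 (0.88) and the interferon-induced genes 0 higher and 2 lower of 29 (-0.43). The heat-shock sum was 5824 to 18409 CPM in untreated and 6432 to 8219 CPM in DSS monocytes. In the macrophages it was 10418 to 31005 against 7296 to 14511 CPM. Ptgs2 (0.45, edgeR adjusted p = 0.440), Il1b (0.30, adjusted p = 0.474), Hif1a (0.59, adjusted p = 0.126) and H2-Aa (-0.82, adjusted p = 0.135) were not called, and each had a log2 fold change of the same sign in both populations. For Ptgs2 the macrophages went from 137 to 317 CPM to 586 to 773 CPM.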

How the data were processed

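The authors deposited whole-number UMI counts per gene and barcode for each of 8 libraries. Per the submitters' processing notes, Cell Ranger 3.1.0, Seurat 4.0.1 and mm10 were used, and further settings are not given in the sources used here. In 7 tables rows were numbered, and the deposited list of 31053 symbols gave their order, which was checked against the table with identifiers (98.5% of identifiers had the listed symbol). Members were found by the rule in the report, and their counts were summed per library (119110 to 285833 UMIs). Members and gene lists were chosen with earlier results of these data known.

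Sums were tested with edgeR 4.0.16 in R 4.3.3 (quasi-likelihood test, TMM, filterByExpr by group, Benjamini-Hochberg, adjusted p under 0.05) on all 8 libraries, with DESeq2 1.42.0 as an alternative. The 15 rule genes and 13 mitochondrial genes counted in library sizes and were not tested. DSS averaged over genotypes and DSS in the knock-in were added to the comparisons the study names. Shares were tested by exact permutation, and their 95% intervals are exact binomial ones. Named genes were, per comparison, up to 12 called genes with the highest and 12 with the lowest log2 fold change, at a mean of at least 20 CPM and without overlap between groups, together with genes of the lists. Crip1, Ifi27l2a and Inhba in the averaged DSS comparison were chosen after their values were seen. Thinning drew UMIs without replacement. Samples were grouped by their titles, and animal numbers there do not state pairs. A few named genes are not reported here. The code was tested on simulated data. Alternatives were DESeq2, no filter on low counts, other memberships, fewer libraries in the fit and leaving out each library.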

Additional observations from a re-analysis of the deposited data

Results flagged for a closer look

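The DSS change differed between the monocytes and the C1q-high macrophages by the interaction test of the report (edgeR's quasi-likelihood test with the library as a block). Of the genes named by size of difference in that test 23 are listed with their values, which are those that chose them and add no further evidence. On the log2 scale the monocyte change was higher for Lrg1 (4.67), Lcn2 (4.23), Ecm1 (2.59), Timp1 (2.27), Bag3 (2.24), Casp6 (2.19), Rhov (1.94), S100a10 (1.86), Il7r (1.76), Trem1 (1.71) and Cd38 (1.65). It was lower for Gatm (-2.43), Ccl5 (-1.72), Rassf3 (-1.55), Fabp5 (-1.43), Mapre2 (-1.38), Myof (-1.35), Gbp5 (-1.23), Cenpa (-1.15), Arl5c (-1.03), Isg15 (-1.02), Tnfaip2 (-0.84) and Rap1a (-0.84). Groups of 2 libraries were not tested for single outlying values. Rhov, with 3 to 8 UMIs in each untreated and 9 to 15 in each DSS library of the monocytes, passed the filter on low counts only with the macrophage sums in the fit. Other listed genes had few monocyte UMIs as well. The untreated libraries held 0, 1, 0 and 1 of Lrg1, 3, 1, 3 and 2 of Lcn2, 3, 3, 3 and 1 of Timp1 and 3, 4, 0 and 3 of Casp6. The DSS libraries held 3, 2, 6 and 0 of Gatm. Differences of these genes rest on few UMIs.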

How the results depend on the processing

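Counts of called genes depended on the filter, the tool, the membership and single libraries, and the cause was not tested except that some alternatives hold fewer members or libraries. For DSS averaged over genotypes (130), DESeq2 called 80, edgeR without the filter 253, members with at most 2 S100a8 and S100a9 UMIs gave 78, members with a Ly6c2 UMI gave 30 (in both, knock-in DSS 2 had too few members and was left out as well), and leaving out each library gave 25 to 234. For DSS in the wildtype (0) these were 4, 65, 14, 4 and 0 to 13. For DSS in the knock-in (17) DESeq2 called 32 and no filter 155, Ly6c2-positive members gave 0, the 4 libraries alone 3, and leaving out libraries 2 to 107. For the genotypes in untreated mice (0) DESeq2 called 2, no filter 27, the stricter S100a8 limit 2, and leaving out libraries 0 to 3. After DSS (0) no filter gave 9 and leaving out libraries 0 to 5, and for the interaction (0) 8 and 0 to 4. For the split by Ly6c2 (7) DESeq2 called 3, no filter 22, a limit of at least 2 Ly6c2 UMIs 12, thinned members 1, all 8 libraries (added after seeing the data) 18, and leaving out libraries 4 to 23. Against the macrophages (81) DESeq2 called 64 and no filter 119, both within 1.5 times, and leaving out libraries gave 43 to 107. Neighbouring animal numbers were used as a replicate block, although the labels state no pairs, and the count rose to 3 in untreated mice and was 0 after DSS.

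The log2 ratio of the monocyte share (0.40) was -0.478 with barcodes of at least 1000 UMIs thinned to 1000 and 0.235 to 0.674 with 1 library left out. Signs turned only for genes that were not called. Tnf over both genotypes was 0.18 without WT untreated 1, 0.03 without WT DSS 2, 0.02 without knock-in DSS 1 (range over libraries left out -0.32 to 0.18) and 0.16 in members without T cell receptor UMIs (added after seeing the data). Between genotypes H2-Aa was -0.17 in untreated mice without WT untreated 1 (range -0.17 to 0.42). After DSS Il1b was -0.067 in Ly6c2-positive members. Chil3 was -1.09 without knock-in DSS 2, -1.09 with the stricter S100a8 limit and -1.13 in Ly6c2-positive members, and H2-Aa was 0.34, 0.32 and 0.63 under these. Knock-in DSS 2 had too few members under the stricter limit and with Ly6c2. All of these fits thus left it out, and they are not separate checks. With single libraries left out Chil3 ranged from -1.09 to 2.74 and H2-Aa from -2.70 to 0.34. Members free of T cell, immunoglobulin and collagen UMIs were too few to be tested, since 367 of 423 held such a UMI, and this alternative was not run.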
